A study of Mus musculus with 8 samples.

Results

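The PRAME family and the oogenesins (Oog genes) were described in RNA sequencing data of mouse full-grown oocytes, taken as every gene of the count table whose symbol is Pramef, Pramel or Oog followed by a number. This gave 15 genes of the 35976 in the table, with 5 Pramef, 6 Pramel and 4 Oog genes. The libraries fell into 4 groups of 2. One group carried the label of a knockout of both genes for the histone variant H2A.Z (H2A.Z.1 and H2A.Z.2; labelled DKO) and was set against H2A.Z control oocytes of wild-type genotype. Another was a knockout of Mll2 (KO), the methyltransferase gene also called Kmt2b, and was set against Mll2 WT oocytes of wild-type genotype. About 20 oocytes without their zona pellucida were pooled per library, their polyadenylated RNA was copied into cDNA, and 200 pg of it was used. The sources used here do not give the strain, the age of the animals, the alleles or any Cre driver.

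PRAME family proteins are built from leucine-rich repeats, and human PRAME acts as a substrate receptor of ubiquitin ligases assembled on the scaffold protein cullin 2 (CUL2). The family is greatly expanded in the mouse, with tandem copies in clusters that were duplicated recently, and its members are transcribed mostly in the germline and the early embryo. Oogenesins are a branch expressed in oocytes. Oog1 was found as an oocyte gene whose protein binds RalGDS, an exchange factor for the small GTPase Ral. MLL2 places methyl groups on lysine 4 of histone H3 at promoters, and its CXXC domain binds unmethylated CpG dinucleotides, while H2A.Z marks the nucleosomes that flank active start sites.

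Total counts ran from 20309233 to 30087863 per library, and 16847 genes were tested. All 11 full-grown oocyte markers examined had counts. CPM here are a library's counts rescaled to 1 common total, with the further scaling given below. In CPM the markers summed to 21682 and 25066 under the DKO label, against 24002 and 22888 in H2A.Z controls. H2afz, the gene of H2A.Z.1, measured 322 and 317 CPM in the libraries labelled DKO, against 23.9 and 29.9 CPM in H2A.Z controls, so it went against the label. H2afv, the gene of H2A.Z.2, did so too, at 284.8 and 294.0 CPM in the libraries labelled DKO, against 107.9 and 107.1 CPM in H2A.Z controls, and the direction of every DKO result below rests on the label alone. Kmt2b measured 8.73 and 9.27 CPM in Mll2 KO, against 41.9 and 42.4 CPM in Mll2 WT. The 12 granulosa and cumulus markers all had counts and summed to 115.0 and 118.2 CPM in the libraries labelled DKO, against 85.4 and 86.1 CPM in H2A.Z controls, and to 96.6 and 96.9 CPM in Mll2 KO, against 84.1 and 87.1 CPM in Mll2 WT. The rise under the DKO label lay mostly in Fshr (mean 18.8, against 0.945 CPM) and Nr5a2 (39.0, against 29.8 CPM). Foxl2, Amh, Wt1 and Amhr2 averaged at most 0.163 CPM in any group. In Mll2 KO the markers went both ways, with Fshr at a mean of 7.47, against 0.792 CPM, and Cyp19a1 at 28.9, against 49.5 CPM. The 9 theca and stroma markers, with Col3a1 at 0, summed to 27.0 and 23.8 CPM under the DKO label, against 14.3 and 16.0 CPM in H2A.Z controls, and to between 8.92 and 10.2 CPM in the Mll2 line. Most of this rise under the DKO label was Cyp11a1, at a mean of 20.01, against 10.63 CPM in H2A.Z controls. Cyp17a1, Col1a1, Col1a2 and Lum averaged at most 0.0495 CPM in any group. The 8 blood, immune and endothelial markers, with the globin genes Hbb-bs and Hba-a1 and the endothelial gene Cdh5 at 0, summed to 32.3 and 29.1 CPM under the DKO label, against 22.1 and 23.6 CPM in H2A.Z controls, and to between 35.6 and 44.4 CPM in the Mll2 line. Pecam1 made up most of the blood, immune and endothelial sum in every library, with group means from 19.2 to 37.1 CPM. The part of such cells in the results below was not tested. The 2 Mll2 KO libraries differed from each other more than any other pair, with a spread over genes of 38.4 times that of counting error by chi-square, against 4.64 to 12.5 in the other groups. Expression values in CPM, above and below, carry edgeR's TMM scaling, which sets aside the most extreme genes when the scale is set. Tests are edgeR's quasi-likelihood test adjusted over all genes tested (Benjamini-Hochberg), and a gene is called when the adjusted p is under 0.05. Nothing in the labels ties replicates to different animals, so these p-values measure only the spread between libraries. In pooled oocytes, less RNA per cell and fewer expressing cells cannot be told apart.

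Of the 15 members, 11 lie on chromosome 4 of the mm10 genome, where they share a cluster between Pramel1 (start 143394441) and Pramef12 (end 144408467) with many copies named by other symbols. Pramel6 and Pramel7 lie on chromosome 2, Oog1 on chromosome 12 and Pramel3 on the X chromosome. RefSeq on this build listed 53 genes of the family, 39 of which matched a row of the table, so that 24 copies stood under symbols outside the naming rule, such as Gm13103 (now Pramel27). Genes of the table that share sequence with members but were not matched this way, such as Gm2042 and BC080695, are not among the 24. RefSeq now names Pramef6, Pramef8, Pramef12, Pramef17 and Pramef25 Pramel11, Pramel12, Pramel13, Pramel14 and Pramel16, in that order. On chromosome 4, genes named Oog, Pramef and Pramel thus lie among each other.

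Only 8 of the 15 members passed the filter on low counts, namely Oog1 to Oog4, Pramef8, Pramef12, Pramef17 and Pramef25. The other 7 had few or no counts. Pramel3, Pramel6 and Pramel7, the last of which directs the ubiquitin ligase substrate UHRF1 to degradation in mouse embryonic stem cells, had 0 counts in every library. A count of 0 allows up to 0.0687 CPM in the group labelled DKO, 0.0675 CPM in H2A.Z controls, 0.0505 CPM in Mll2 KO and 0.0495 CPM in Mll2 WT (3 counts over both libraries of a group, counting error only). Pramel1 had 1 count under the DKO label and 1 in Mll2 WT, and Pramel5 had 3 and 1 in the same groups, with 0 in the others. Pramel4 summed to 0 counts under the DKO label and 1 in H2A.Z controls, and to 6 in Mll2 KO and 5 in Mll2 WT. Pramef6 summed to 2 counts under the DKO label and 4 in H2A.Z controls, and to 0 in Mll2 KO and 5 in Mll2 WT. No difference between groups was detectable in these members at this depth. Each of the 6 genes named Pramel thus had at most 6 counts over a group, and the members' counts came almost wholly from Oog and Pramef genes.

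Among the 8 tested members, levels per length of exon spanned more than 3 orders of magnitude in the controls. On the scale of CPM per kilobase (kb), the H2A.Z controls had mean levels of 1806 for Oog3, 1391 for Oog4, 305 for Oog2, 91.2 for Oog1, 38.8 for Pramef12, 5.13 for Pramef8, 1.61 for Pramef17 and 0.311 for Pramef25. Mll2 WT oocytes kept nearly that order, with 1475 for Oog3, 810.5 for Oog4 and 189.6 for Oog2, but Pramef12 at 91.5 stood above Oog1 at 63.4. In both control groups each member's 2 libraries lay apart from those of the next member in the order. The same held in the libraries labelled DKO, where Pramef25 moved up the order to stand above Pramef8, at 7.07 against 4.63 CPM per kb. In Mll2 KO the Oog2 libraries (143 to 199.6 CPM per kb) and the Pramef12 libraries (93.6 to 149.2) overlapped, and every other pair of neighbours lay apart. Oog3 and Oog4 thus stood highest of the 8 tested members in every group, with copies under other symbols not ordered here.

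**Figure D1:**
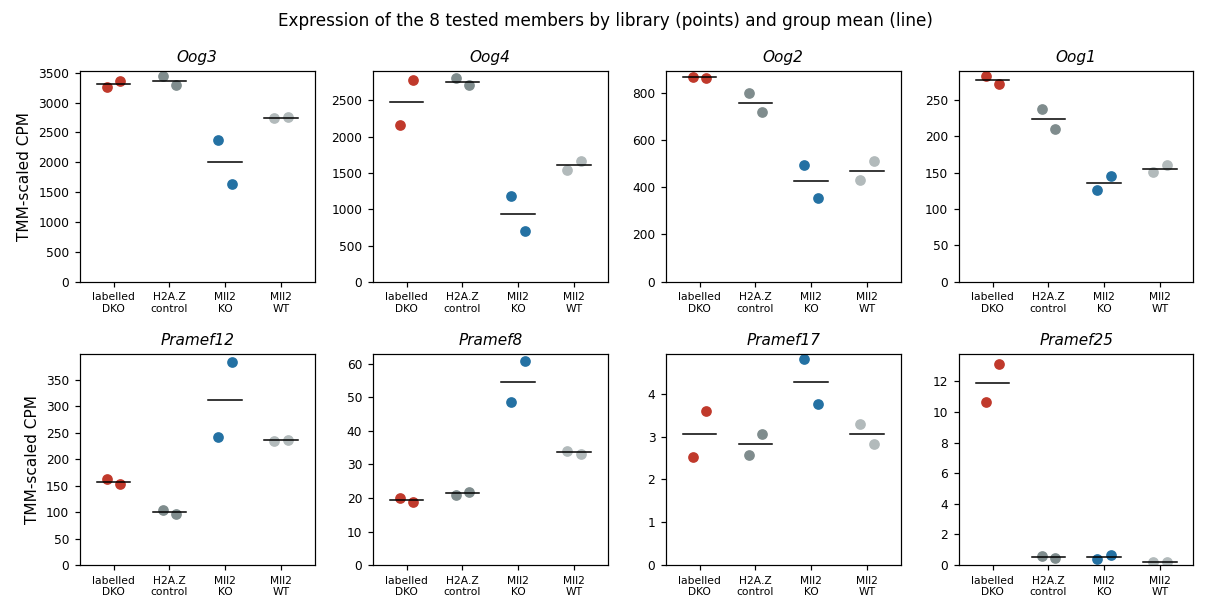
Expression of the 8 tested members in TMM-scaled CPM (y axis, from 0, a separate scale per gene), with 1 point per library and a line at the mean of each group of 2 libraries. The libraries labelled DKO stand far above all others for Pramef25, at 10.7 and 13.1 CPM, and the Mll2 KO libraries stand below Mll2 WT for Oog3 and Oog4 and above it for Pramef8.

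Under the DKO label, Pramef25, Pramef12 and Oog1 were called higher than in H2A.Z controls and no member was called lower. In Mll2 KO, Pramef8 and Pramef25 were called higher and the 2 most abundant oogenesins, Oog3 and Oog4, lower than in Mll2 WT. Under the DKO label this was 3 of 8 members higher and 0 of 8 lower, while 30.9% of all genes tested were called, 19.4% higher and 11.5% lower. The members' median log2 fold change was 0.15, against 0.12 over all genes tested, a shift that was 0.00 when libraries were scaled by size alone. That scaling also turned the split of calls over all genes to 2063 higher and 2467 lower, against 3269 and 1929 with TMM. In Mll2 KO, 2 of 8 were called higher and 2 of 8 lower, while 30.6% of all genes were called, 14.4% higher and 16.2% lower, with medians of 0.13 for the members and 0.02 for all genes. Scaled by size alone, the Mll2 KO split was 3418 higher and 2013 lower, against 2428 and 2730, and Pramef12 passed as a further member (adjusted p = 0.0272). Pramef25 was the 1 member called in both mutants, and Oog2 and Pramef17 were called in neither.

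**Figure D2:**
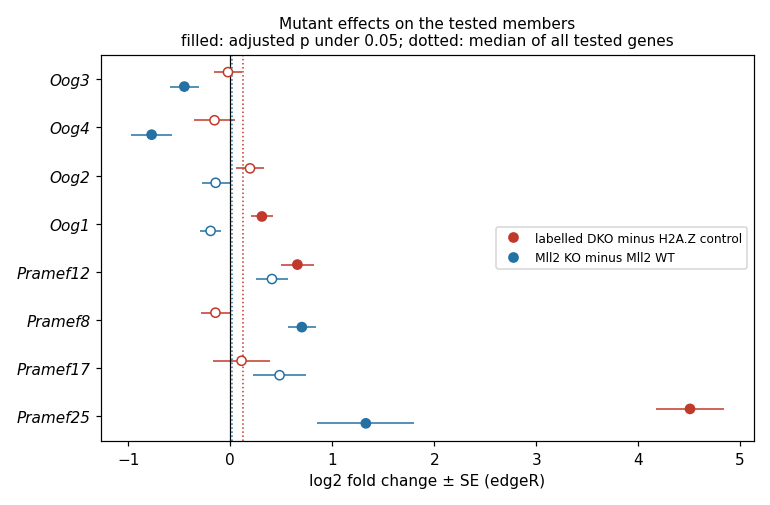
Log2 fold change ± SE (x axis) of the 8 tested members for the libraries labelled DKO minus H2A.Z control (red) and Mll2 KO minus Mll2 WT (blue), with filled points for an adjusted p under 0.05 and dotted lines at the medians of all tested genes (0.12 and 0.02). Pramef25 lies far to the right, at 4.51, in the DKO comparison, and Oog4 lies lowest, at -0.77, in the Mll2 KO comparison.

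The 4 Oog genes are similar in coding sequence, at 70.5 to 80.5% identity between pairs, and their promoters are similar too. Since MLL2 and H2A.Z act at promoters, the 250 bases before the start site are shown for the 4 Oog genes, from RefSeq on GRCm38.p6 (the patched mm10 assembly), 5′ to 3′ on the gene's own strand. The stretches are chr4:143450325-143450574 for Oog4 (minus strand), chr4:144162652-144162901 for Oog3 (minus strand), chr4:144190467-144190716 for Oog2 (plus strand) and chr12:87602415-87602664 for Oog1 (plus strand). Capitals mark CG dinucleotides and the TATA box letters TATAAA.
Oog4: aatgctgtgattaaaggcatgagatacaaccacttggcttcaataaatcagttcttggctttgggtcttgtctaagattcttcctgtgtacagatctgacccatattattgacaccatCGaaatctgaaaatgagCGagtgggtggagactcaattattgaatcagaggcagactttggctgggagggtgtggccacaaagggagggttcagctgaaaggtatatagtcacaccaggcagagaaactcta
Oog3: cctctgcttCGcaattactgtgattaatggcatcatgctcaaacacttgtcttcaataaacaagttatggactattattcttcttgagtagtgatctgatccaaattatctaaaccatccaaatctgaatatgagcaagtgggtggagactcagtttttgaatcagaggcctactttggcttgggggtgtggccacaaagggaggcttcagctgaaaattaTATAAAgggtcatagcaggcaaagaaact
Oog2: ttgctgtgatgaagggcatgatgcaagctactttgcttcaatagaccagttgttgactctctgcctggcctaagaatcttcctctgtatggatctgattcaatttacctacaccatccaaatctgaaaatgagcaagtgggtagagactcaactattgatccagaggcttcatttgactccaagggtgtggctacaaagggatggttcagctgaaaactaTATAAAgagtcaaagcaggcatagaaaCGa
Oog1: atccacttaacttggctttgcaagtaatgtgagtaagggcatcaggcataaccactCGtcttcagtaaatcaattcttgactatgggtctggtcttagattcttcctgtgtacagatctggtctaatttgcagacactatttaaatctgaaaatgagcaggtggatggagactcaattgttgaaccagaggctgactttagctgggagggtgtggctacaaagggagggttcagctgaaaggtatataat
These stretches were 63.9 to 76.9% identical among the 4 Oog genes. All 4 were poor in CG, with 1 to 3 in a window of 300 bases (250 before the start and 50 after it), against a median of 7 over all 32851 RefSeq promoters. TATAAA, searched on both strands, began at -29 in Oog3 and at -30 in Oog2, was not found in the windows of Oog4 and Oog1, and occurred in 13.6% of all promoters. The 11 bases ttCAGCTGaaa, with the E-box letters in capitals, stood in all 4, starting at -43 in Oog4, -44 in Oog3, -45 in Oog2 and -21 in Oog1. This run was picked as the longest that the 4 stretches share, and on either strand it occurred in 17 of the 32851 promoters (0.0517%). Of these, 7 were family genes, which were the 4 Oog genes and the copies Gm13089, Gm13084 and C87499, out of 33 family genes with a promoter in the table. The E-box letters CANNTG, which the oocyte factor FIGLA binds, occurred in all 14 members with a promoter entry and in 72.3% of all promoters. TAATTG, letters bound by the oocyte homeobox factor NOBOX, occurred in the windows of Oog3, Oog4 and Pramef12, or 3 of 14 members, and in 8.0% of all promoters, and TAATCC in Pramef6, Pramel4 and Pramel5 and in 7.06% of all promoters. A match is a description of letters and not of binding.

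Summed over the 4 genes, the oogenesins made up 0.321 to 0.694% of all counts in a library. In the libraries labelled DKO they summed to 6566 and 7289.9 CPM, against 7282 and 6924 CPM in H2A.Z controls, so the groups overlapped. The means were 6928 ± 512 CPM under the DKO label and 7103 ± 253 CPM in controls (SD, n = 2 each), a log2 ratio of -0.04. In Mll2 KO the sums were 4183 and 2841 CPM, against 4865 and 5099.9 CPM in Mll2 WT, with both KO libraries below both WT libraries. The means were 3512 ± 949 CPM in Mll2 KO and 4982 ± 166 CPM in Mll2 WT (SD, n = 2 each), a log2 ratio of -0.50. The ratio was -0.29 without Mll2 KO replicate 2 and -0.80 without Mll2 KO replicate 1, so its size rested on the second KO library. The 11 oocyte markers summed to 16657 and 14515 CPM in the same Mll2 KO libraries, against 16885 and 21199.8 CPM in Mll2 WT. Zp2, Dppa3 and Oosp1 were called lower (log2 -0.82, -0.55 and -0.31). The other 8 were not called, and values over the 11 ran from -0.82 to 0.25, with a median of -0.13. The part of this in the Oog values was not tested. No test was made of sums. Oog4 made up 26.8% of the Oog sum in Mll2 KO, against 32.2% in Mll2 WT, and 35.7% under the DKO label, against 38.8% in H2A.Z controls.

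**Figure D3:**
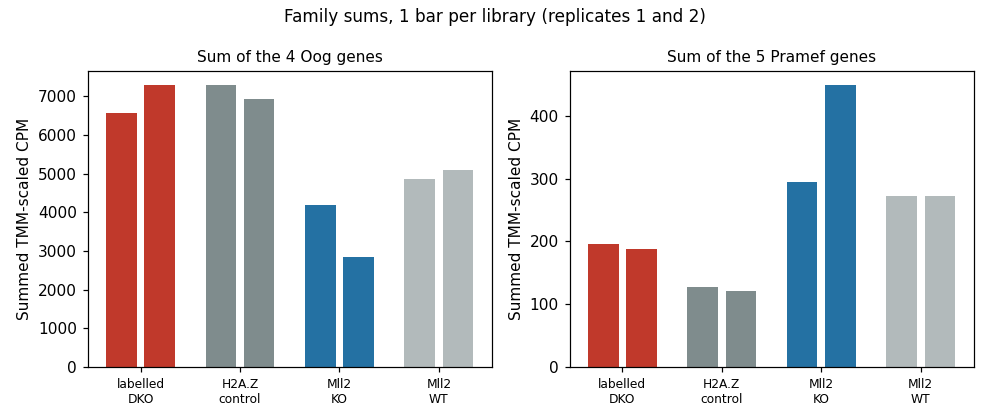
Summed TMM-scaled CPM (y axes from 0) of the 4 Oog genes (left) and the 5 Pramef genes (right), with 1 bar per library and replicates 1 and 2 side by side. The Oog sum is lowest in Mll2 KO, at 4183 and 2841 CPM, and the Pramef sum is highest there, at 294.7 and 449 CPM.

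Oog3 (chromosome 4, 144157556 to 144162651), the most abundant member, measured 2376 and 1646 CPM in Mll2 KO, against 2742 and 2759.6 CPM in Mll2 WT. Both KO libraries lay below both WT libraries, and the gap between the KO libraries was wider than that between the KO and WT libraries nearest each other. The log2 fold change was -0.45 ± 0.14 (SE; edgeR adjusted p = 0.0225), a call that was lost with library-size scaling (0.052), with the Mll2 line fitted alone (0.106) and without either WT library (0.081 and 0.0518). Under the DKO label Oog3 measured 3258 and 3367 CPM, against 3444 and 3291 CPM in H2A.Z controls. These groups overlapped, and the log2 fold change of -0.02 ± 0.14 did not pass the test (edgeR adjusted p = 0.915).

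Oog4 (chromosome 4, 143437164 to 143450324) fell furthest of the 8 tested members in Mll2 KO, to 1185 and 695 CPM, against 1543 and 1668 CPM in Mll2 WT. No KO library reached the WT range. The log2 fold change was -0.77 ± 0.20 (edgeR adjusted p = 0.0143), and the call was lost without Mll2 WT replicate 2 (adjusted p = 0.0713) and kept under the other 13 alternatives. In the libraries labelled DKO, Oog4 measured 2159.8 and 2788 CPM, against 2803 and 2707 CPM in H2A.Z controls. The second DKO library lay between the controls and the first lay below both. The log2 fold change of -0.16 ± 0.20 did not pass (edgeR adjusted p = 0.603), but Oog4 was called lower with the H2A.Z line fitted alone (log2 -0.28, adjusted p = 0.0413) and after leaving out Mll2 KO replicate 1 (0.0354) or 2 (0.0348).

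Oog2 (chromosome 4, 144190717 to 144196934) was not called in either comparison. It measured 867 and 864 CPM in the libraries labelled DKO, against 798 and 716 CPM in H2A.Z controls, and 495 and 356 CPM in Mll2 KO, against 429 and 512 CPM in Mll2 WT. The first pair of groups lay apart and the second overlapped. Its log2 fold changes were 0.19 ± 0.14 under the DKO label (edgeR adjusted p = 0.313) and -0.14 ± 0.14 in Mll2 KO (adjusted p = 0.455). Without the first Mll2 KO library the Mll2 KO value became -0.39, which passed the test (edgeR adjusted p = 0.00343).

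Oog1 (chromosome 12, 87602665 to 87608845), the founding oogenesin, lies outside the cluster and was the lowest of the 4. It measured 282 and 272 CPM in the libraries labelled DKO, against 237 and 210 CPM in H2A.Z controls, with both DKO libraries above both controls. It was called higher, with a log2 fold change of 0.31 ± 0.11 (edgeR adjusted p = 0.0367), or 0.18 relative to the median of all genes. That call was lost with DESeq2 (0.0894), with other scalings (0.0746 and 0.191) and without 6 of the 8 libraries, taken 1 at a time (adjusted p up to 0.299). In Mll2 KO, Oog1 measured 126.6 and 145 CPM, against 151 and 160.4 CPM in Mll2 WT. The KO libraries lay below the WT libraries by less than the test requires, at a log2 fold change of -0.19 ± 0.11 (edgeR adjusted p = 0.180).

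The 5 Pramef genes summed to 196 and 187.8 CPM in the libraries labelled DKO, against 127.9 and 121.6 CPM in H2A.Z controls, and to 294.7 and 449 CPM in Mll2 KO, against 272 and 273 CPM in Mll2 WT. The libraries labelled DKO lay above H2A.Z controls, and the Mll2 KO libraries above Mll2 WT. The means were 191.9 ± 5.82 CPM under the DKO label and 124.7 ± 4.47 CPM in H2A.Z controls, a log2 ratio of 0.62, and 372 ± 109 CPM in Mll2 KO and 272.6 ± 0.61 CPM in Mll2 WT, a log2 ratio of 0.45 (SD, n = 2 each). Without Mll2 KO replicate 2 the second ratio was 0.07. Pramef12 made up most of each sum. Over all 15 members the mean sums were 7120.1 ± 506 CPM under the DKO label and 7228 ± 257 CPM in H2A.Z controls, and 3884 ± 840 CPM in Mll2 KO and 5255 ± 167 CPM in Mll2 WT (SD, n = 2 each), since the Oog genes dominate.

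The promoters of Pramef25 and Pramef12, the members called highest and most abundant among Pramef genes, are shown for comparison with those of the Oog genes. They are RefSeq's 250 bases before the start on GRCm38.p6 at chr4:143951017-143951266 and chr4:144408465-144408714, both on the minus strand, with CG and TATAAA in capitals.
Pramef25: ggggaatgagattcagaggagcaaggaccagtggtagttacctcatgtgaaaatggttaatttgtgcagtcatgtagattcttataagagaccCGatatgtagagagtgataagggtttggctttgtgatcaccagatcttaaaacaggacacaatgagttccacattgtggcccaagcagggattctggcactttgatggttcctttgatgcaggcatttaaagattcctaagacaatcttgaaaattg
Pramef12: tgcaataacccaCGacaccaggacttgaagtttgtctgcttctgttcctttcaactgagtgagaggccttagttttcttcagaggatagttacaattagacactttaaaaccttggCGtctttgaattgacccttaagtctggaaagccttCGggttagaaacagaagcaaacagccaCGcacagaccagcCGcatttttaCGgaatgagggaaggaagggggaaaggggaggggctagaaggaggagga
Each was 43.6 to 49.3% identical to the Oog stretches, and the pair was 47.0% identical to each other. Pramef25 had 1 CG in its window of 300 bases, while Pramef12 had 7, the median of all promoters. Over the family, 11 of the 14 members with a promoter entry lay below that median, and the others were Pramef12, Pramel3 with 9 and Pramel1 with 20. Pramef8 has no entry. TATAAA was not found in the windows of Pramef25 and Pramef12.

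Pramef25 (chromosome 4, 143948183 to 143951016; now Pramel16), a PRAME-like gene next to Pramef17 in the cluster, changed most. Its raw counts were 241 and 277 in the libraries labelled DKO, against 11 and 12 in H2A.Z controls, and 11 and 19 in Mll2 KO, against 6 and 6 in Mll2 WT. In CPM it measured 10.7 and 13.1 under the DKO label, against 0.568 and 0.478 in H2A.Z controls. Both DKO libraries were far above every other library of the series. The log2 fold change was 4.51 ± 0.33, or 22.7-fold (edgeR adjusted p = 2.38e-07), and ran from 4.35 to 4.65 without single libraries, with adjusted p up to 3.15e-05. In Mll2 KO it measured 0.371 and 0.638 CPM, against 0.198 and 0.198 CPM in Mll2 WT, where it was under the level of 0.388 CPM that the filter required in 2 libraries. The KO libraries were higher by a log2 fold change of 1.33 ± 0.47 (edgeR adjusted p = 0.0439), a call that 11 of 14 alternatives lost. It fell to 0.85 without Mll2 KO replicate 2 (adjusted p = 0.321) and was 1.33 with the Mll2 line fitted alone (0.156).

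Pramef25 shares sequence with several copies, which bears on where its reads were counted. Of its 50-base words, 63.5% also occur in another gene's transcripts, and its coding sequence is 94.3% identical to that of Gm13119 (now Pramel31). Of the sharing genes with a row in the table, Gm13040, Gm13043 and Gm13057 had between 0 and 2 counts in a library in all 4 groups. BC080695 had 157 and 171 counts in the libraries labelled DKO, against 8 and 7 in H2A.Z controls, and Gm13119 had 46 and 64, against 2 and 2. Summed with these 5 genes, Pramef25 reached 22.0 CPM under the DKO label, against 0.961 CPM in H2A.Z controls (22.9-fold), and 1.93 CPM in Mll2 KO, against 0.462 CPM in Mll2 WT (4.19-fold). The fold under the DKO label was thus similar with and without the similar copies, but Pramef25 itself gave 11.9 of the 22.0 CPM. In Mll2 KO, Pramef25 gave only 0.504 of the 1.93 CPM. BC080695 had 39 and 37 counts there, against 2 and 2 in Mll2 WT, and Gm13119 had 4 and 5, against 5 and 7. The 4.19-fold ratio is thus mostly that of BC080695. The sharing genes were named after their values were seen, and Gm13119 passed the filter only through the libraries labelled DKO. The sum is therefore no separate support for the rise, and reads cannot be assigned to 1 copy with certainty.

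Pramef12 (chromosome 4, 144391674 to 144408467; now Pramel13), the most abundant Pramef gene, measured 162.9 and 152 CPM in the libraries labelled DKO, against 103.7 and 96.1 CPM in H2A.Z controls. Both DKO libraries lay above both controls. Pramef12 rose by a log2 value of 0.66 ± 0.16, or 1.58-fold (edgeR adjusted p = 0.00746), and 0.53 relative to the median of all genes. It lost its call without H2A.Z control replicate 2 (0.0704), DKO replicate 1 (0.0611) or Mll2 WT replicate 2 (0.0581). In Mll2 KO it measured 240.9 and 384 CPM, against 234 and 237 CPM in Mll2 WT, so only the second KO library stood clearly above the WT pair. The log2 fold change of 0.41 ± 0.16 did not pass (edgeR adjusted p = 0.0661), and it was -0.01 without Mll2 KO replicate 2 (0.961) and 0.72 without Mll2 KO replicate 1 (5.69e-07). No 50-base word of Pramef12 occurs in another gene, but an antisense gene, Pramef12os, overlaps it, and with a kit that does not mark strand their reads cannot be told apart.

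Pramef8 (chromosome 4, 143412155 to 143421091; now Pramel12) measured 48.6 and 60.9 CPM in Mll2 KO, against 34.1 and 33.3 CPM in Mll2 WT. Both KO libraries lay above both WT libraries. The rise was 0.70 ± 0.14 on the log2 scale, or 1.63-fold (edgeR adjusted p = 0.00125), and it kept its call in all 14 alternatives, with adjusted p up to 0.0291. Under the DKO label it measured 19.9 and 18.8 CPM, against 21.0 and 21.8 CPM in H2A.Z controls, a log2 fold change of -0.15 ± 0.14 that did not pass (edgeR adjusted p = 0.471). Pramef8 shares no 50-base word with another gene, and the next family gene along the chromosome, Oog4, was called lower in Mll2 KO.

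Pramef17 (chromosome 4, 143991127 to 143994369; now Pramel14) stayed at a few CPM in every group. It measured 2.53 and 3.61 CPM in the libraries labelled DKO, against 2.58 and 3.07 CPM in H2A.Z controls, and 4.82 and 3.76 CPM in Mll2 KO, against 3.30 and 2.83 CPM in Mll2 WT. Neither log2 fold change passed, at 0.11 ± 0.28 (edgeR adjusted p = 0.804) and 0.48 ± 0.26 (adjusted p = 0.178), and the DKO value was -0.02 with library-size scaling. Its coding sequence is 99.3% identical to Gm13128, which had at most a few counts in a library.

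The difference between the effects of the 2 lines was tested with an interaction contrast, DKO effect minus Mll2 KO effect, which called 3 of 8 members, 2 with a positive and 1 with a negative value. Over all genes tested it called 19.5%, with 12.9% positive and 6.68% negative. Scaled by size alone, that split turned to 1096 positive and 1866 negative, against 2165 and 1126 with TMM. Pramef25 differed by a log2 value of 3.18 ± 0.65 (edgeR adjusted p = 0.00309) and Pramef8 by -0.85 ± 0.20 (adjusted p = 0.00721), and both calls were kept under all 13 alternatives run for this contrast. Oog1 differed by 0.50 ± 0.15 (edgeR adjusted p = 0.0275), a call lost under 9 of the 13. For Oog3 and Oog4, called lower in Mll2 KO and not under the DKO label, the difference itself did not pass, at 0.43 ± 0.20 (edgeR adjusted p = 0.141) and 0.62 ± 0.29 (adjusted p = 0.158). Over the 13 alternatives the difference ran from 0.107 to 0.584 for Oog3 and from 0.203 to 0.920 for Oog4, and each gained a call under 2. In the main fit, the effects on Oog3 and Oog4 were therefore not shown to differ between the lines.

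**Figure D4:**
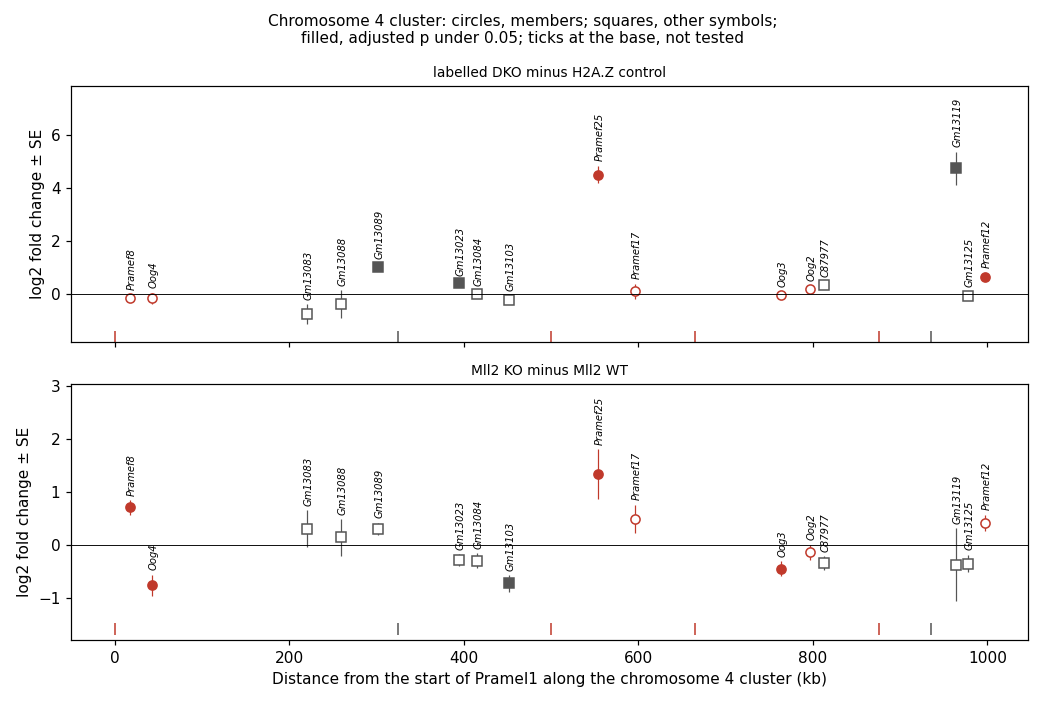
Log2 fold change ± SE (y axis) of family genes along the chromosome 4 cluster, by distance in kb from the start of Pramel1, for the libraries labelled DKO minus H2A.Z control (top) and Mll2 KO minus Mll2 WT (bottom). Circles are members, squares are copies under other symbols, filled symbols have an adjusted p under 0.05 and ticks mark genes not tested. Called and uncalled genes lie side by side along the cluster, such as Pramef25 at 4.51 beside Pramef17 at 0.11 in the top panel.

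The copies under other symbols were set beside the members, because similar copies can take each other's reads. Of the 24, 20 had a count and 15 were tested, of which 5 were called higher and 0 lower under the DKO label, and 1 higher and 3 lower in Mll2 KO. The 5 include Gm13119, whose call was built in by the filter as given below, so that count is not read as a result. Over all genes tested, 19.4% were called higher and 11.5% lower under the DKO label, and 14.4% and 16.2% in Mll2 KO. The summed levels of the copies were 11625 and 11674 CPM in the libraries labelled DKO, against 11163 and 9757 CPM in H2A.Z controls, and 6934 and 5543 CPM in Mll2 KO, against 7437 and 8238 CPM in Mll2 WT. As with the Oog genes, both Mll2 KO libraries lay below both Mll2 WT libraries. The copies called with the smallest p under the DKO label were B020004J07Rik (now Pramel17), at 5.01 and 5.79 CPM, against 0.517 and 0.398 CPM in H2A.Z controls (log2 3.56 ± 0.38, edgeR adjusted p = 6.5e-06), Gm13089 (now Pramel23; log2 1.02 ± 0.12, adjusted p = 1.62e-05), Gm13119, and C87499 (now Pramel32; log2 0.51 ± 0.11, adjusted p = 0.00251). Gm13119 measured 2.04 and 3.04 CPM under the DKO label, against 0.103 and 0.0796 CPM in H2A.Z controls, and it passed the filter only through the libraries labelled DKO, so that its call was built in and is not read as a result. In Mll2 KO, B020004J07Rik was called higher, at 1.42 and 1.14 CPM, against 0.198 and 0.297 CPM in Mll2 WT (log2 2.35 ± 0.42, edgeR adjusted p = 0.00063), where it was under the filter's level. Gm13103, the copy closest to Oog3 at 87.8% coding identity, was called lower there, with 721 and 462 CPM in Mll2 KO, against 966 and 1003 CPM in Mll2 WT (log2 -0.73 ± 0.15, edgeR adjusted p = 0.00235). Gm3259 (now Pramel47) and Gm10436 (now Pramel51) were also called lower, at log2 values of -0.73 and -0.45. Copies called higher under the DKO label thus included low ones, such as B020004J07Rik, and abundant ones, such as Gm13089 at a mean of 783 CPM, against 386 CPM in H2A.Z controls.

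How far each tested member can be told from its copies differed. No 2 members reached 90% identity in coding sequence, and the 105 pairs ran from 47.2 to 85.2%. Of the copies aligned, some outside the naming rule were closer, with Oog1 96.0% identical to Gm13023 and Oog2 94.9% to Gm13084. Gm2042 was not among the sequences aligned, but it held 85.8% of the 50-base words of Oog1, against 14.4% in Gm13023. The share of 50-base words found in another gene was 89.0% for Oog1, 73.5% for Pramef17, 63.5% for Pramef25, 33.4% for Oog2, 19.7% for Oog3 and 0.707% for Oog4, with 0 words for Pramef8 and Pramef12. Oog4, called lower in Mll2 KO, and Pramef8, called higher there, are therefore 2 of the members least open to reads of other copies. Summed with the genes that share 10% or more of its words, Oog1 had a ratio of 1.24-fold under the DKO label and 0.797-fold in Mll2 KO, and Oog2 of 1.04-fold and 0.830-fold. Oog1 itself gave 277 of 4913 CPM under the DKO label and 136 of 2842 CPM in Mll2 KO, and Oog2 gave 865 of 3938 and 426 of 1872 CPM. These ratios are thus mostly those of the other genes and no separate support for the members. Gm2042 measured 258 and 228 CPM under the DKO label, against 185 and 167 CPM in H2A.Z controls. In the Mll2 line its groups overlapped, at 184 and 264 CPM in KO, against 225 and 232 CPM in WT.

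**Figure D5:**
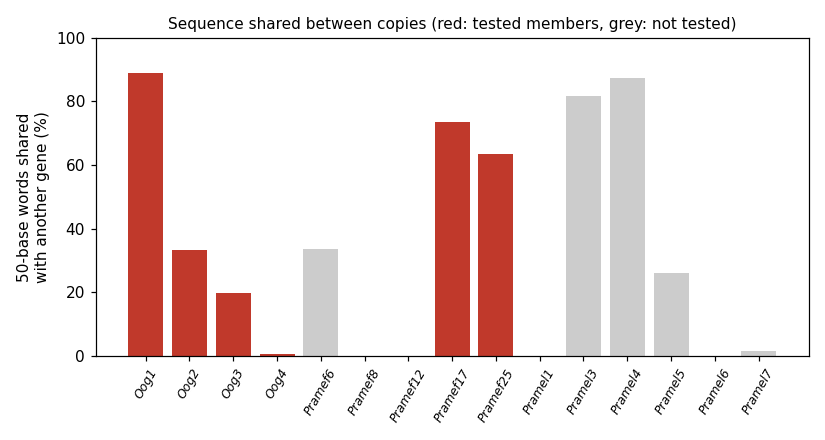
Share of each member's 50-base transcript words that also occur in another gene (y axis, percent), with tested members in red and members not tested in grey. Oog1 has the highest share, at 89.0%, while Oog4 has 0.707% and Pramef8 and Pramef12 have 0.

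The cullin 2 ligase that PRAME proteins serve was covered by a list of 28 symbols, of which 25 were in the table and 24 tested. Under the DKO label 6 were called higher and 1 lower, with a median log2 fold change of 0.14, while over all genes 19.4% were called higher and 11.5% lower, with a median of 0.12. Fem1b, which encodes another CUL2 substrate receptor, rose by a log2 value of 0.70 ± 0.12 (edgeR adjusted p = 0.000523), as did Cand1, the cullin exchange factor, at 0.56, and Rbx1, the RING subunit, at 0.44. Ube2r2, a ubiquitin-conjugating enzyme, was called lower, at a log2 value of -1.69 ± 0.34 (edgeR adjusted p = 0.00174). In Mll2 KO 1 was called higher and 5 lower, with a median of -0.05, while over all genes 14.4% were called higher and 16.2% lower, with a median of 0.02. In neither comparison was the list's share of calls above the 30.9% and 30.6% of all genes. Cul2 itself measured 20.8 and 17.8 CPM in Mll2 KO, against 36.9 and 41.96 CPM in Mll2 WT (log2 -1.03 ± 0.14, edgeR adjusted p = 5.07e-05). Nae1, a subunit of the enzyme that activates the ubiquitin-like protein NEDD8, and Dcun1d1, a NEDD8 ligase of cullins, were also called lower, at -0.59 and -0.41, and Fem1b was called higher, at 0.55.

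Among reported partners of single family members, Uhrf1, which maintains DNA methylation and is the target of mouse PRAMEL7, measured 185 and 179.5 CPM in the libraries labelled DKO, against 122.8 and 118.8 CPM in H2A.Z controls (log2 0.59 ± 0.12, edgeR adjusted p = 0.00191). In Mll2 KO it measured 304 and 409 CPM, against 270.7 and 272 CPM in Mll2 WT (log2 0.39 ± 0.12, edgeR adjusted p = 0.0219). Dnmt1, the maintenance methyltransferase that UHRF1 recruits, was called higher under the DKO label at a log2 value of 0.36 ± 0.12 (edgeR adjusted p = 0.0262) and not in Mll2 KO (-0.09, adjusted p = 0.595). Ralgds, the reported partner of OOG1, was called in neither comparison (0.04 and 0.23). Pramel7 had 0 counts throughout, as given above.

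Some Pramef genes are also transcribed in the 2-cell embryo, so a list of 22 genes of that stage was set beside them. Of the 19 in the table, 10 were tested. No count of their calls is given, since Zscan4f, Usp17la, Usp17lc and Usp17le were under the filter's level in every control library and were tested only through mutant libraries where they were high. The 19 genes summed to 427 and 447 CPM in the libraries labelled DKO, against 241 and 258 CPM in H2A.Z controls, and 149.8 and 97.5 CPM in Mll2 KO, against 130.5 and 124.7 CPM in Mll2 WT. Most of the rise under the DKO label lay in Zscan4d, at a mean of 129 CPM, against 7.89 CPM. Tcstv1 and Tcstv3, most of the control sum, were not called, at means of 202 and 47.8 CPM, against 183 and 54.5 CPM. Zfp352, Duxf3 and the Tdpoz genes averaged at most 0.353 CPM in any group, so the list did not rise as a whole. Pramef25 and the copy B020004J07Rik were called higher in the same libraries labelled DKO, and any link between these changes was not tested.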

How the data were processed

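Per the labels' protocols, cDNA was made from pools of about 20 oocytes with the SMART-Seq v4 low-input kit and sequenced as Nextera XT libraries. The authors deposited raw counts per gene symbol, as whole numbers without normalization, for all 8 libraries. The submitters' processing notes name the build mm10 and the tools RSEM 1.3.1, STAR 2.7.3 and Trim Galore 0.6.4. The annotation, what each tool did, and any rounding or splitting of RSEM estimates between copies are not stated in these notes, and such splitting can shift counts among similar copies.

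All 8 libraries entered 1 fit of 4 group means in edgeR 4.0.16 (R 4.3.3), with filterByExpr by group (minimum count 10), TMM scaling and robust quasi-likelihood tests, adjusted over 16847 genes by Benjamini-Hochberg. The fit was tested on simulated data for the H2A.Z comparison only. It recovered 70% of 100 genes changed 2-fold and 97% of 100 changed 4-fold, and called 17 unchanged genes. A change of 2-fold or less can thus be missed. The SE of a fold change was derived from the F statistic. Family sums are sums of TMM-scaled CPM and had no test. Alternatives were DESeq2 1.42.0, other scalings, no filter, a replicate block, each line fitted alone and leaving out each library.

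Exon lengths, coding identity and shared words came from GENCODE M21 transcripts. Proteins were planned for identity, and coding sequence was used in their place. Promoters came from RefSeq (GRCm38.p6), and 14 of 15 members matched. The members and lists were chosen with earlier results of these data known. Genes named were all tested members, those under the filter by their counts, and up to 4 called copies or cullin 2 list genes per comparison with the smallest p. The shared promoter run, Gm2042, BC080695 and the other genes sharing words with Pramef25 were named after their values were seen.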

Additional observations from a re-analysis of the deposited data

Results flagged for a closer look

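In 15 of 28 genes named above, the effect in the libraries labelled DKO and the effect in Mll2 KO differed by the interaction contrast of the edgeR fit. The 28 are the tested members, the reported partners, the targeted genes, and the copies and cullin 2 list genes picked by smallest p. Since some were picked by their calls, this share cannot be set against that of all genes. Of the members, Pramef25 differed by 3.18 on the log2 scale, Oog1 by 0.50 and Pramef8 by -0.85, where the value is the DKO log2 fold change minus the Mll2 KO one, so that a positive value can also come from a fall in Mll2 KO. Among the copies under other symbols, the difference was 5.12 for Gm13119, which passed the filter only through the libraries labelled DKO, 0.73 for Gm13089, 0.55 for C87499 and 0.48 for Gm10436. Among the cullin 2 ligase genes it was 0.81 for Cul2, 0.66 for Nae1, 0.65 for Rbx1, 0.60 for Cand1 and 0.49 for Dcun1d1. For the targeted genes it was 2.72 for Kmt2b, 2.28 for H2afz and 1.24 for H2afv. Over all genes tested, the median difference was 0.12 and 19.5% were called, but the median was -0.12 with library-size scaling, 0.0025 without Mll2 WT replicate 2 and -0.0081 without Mll2 KO replicate 1. With 2 libraries in each group, single libraries that stand apart from their group could not be tested for.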

How the results depend on the processing

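Each result was recomputed under up to 14 alternatives. Of 135 summary values, 100 stayed within the main value's spread or within 1.5 times its count. Of 328 values for single members, 263 kept their direction and side of the threshold, 37 lost the call, 16 gained it and 12, none of them called, changed sign. With the replicate number as a block, the counts were 3 higher and 0 lower under the DKO label, 2 higher and 2 lower in Mll2 KO and 3 in the interaction; Pramef25 lost its Mll2 KO call (0.0559) and Pramef12 gained one (0.0484). The replicate differences correlated across genes by 0.0395 in the H2A.Z line and -0.0221 in the Mll2 line, so no shared effect of the replicate number was seen. This does not tell whether libraries of the same number were paired.

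With library-size scaling and with each line fitted alone, the DKO log2 ratio of the sum was -0.144 and -0.146 over all members, -0.159 and -0.160 over Oog, and 0.4995 and 0.496 over Pramef genes. In Mll2 KO, 1 member was lower under both settings and 1 higher with the line fitted alone, 1 was lower under the DKO label with the line fitted alone, and 5 were called in the interaction without a filter. Leaving out single libraries gave 1 to 3 higher and 0 to 1 lower under the DKO label, 1 to 3 higher and 0 to 3 lower in Mll2 KO, and 2 to 5 in the interaction. The log2 ratios of the sums then ran from -0.144 to 0.054 (DKO) and -0.664 to -0.272 (Mll2 KO) over all members, -0.158 to 0.042 and -0.799 to -0.294 over Oog, and 0.499 to 0.661 and 0.072 to 0.733 over Pramef genes.

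Values that changed sign without a call were, under the DKO label, Pramef17 with library-size scaling (-0.0175), fitted alone (-0.0176) and without single libraries (-0.165 to 0.351), Oog3 (-0.146 to 0.0125) and Oog4 (-0.351 to 0.0218); in Mll2 KO, Oog2 (-0.392 to 0.0329) and Pramef12 (-0.00843 to 0.717); and in the interaction Pramef12 (-0.181 to 0.544). The cause was not tested. Groups of 2 libraries and the low counts of Pramef25 outside the libraries labelled DKO limit these values.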

Other observations

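The control oocytes of the 2 lines differed in several members before any mutant was considered, and line and preparation cannot be told apart. Pramef12 averaged 235.5 ± 1.61 CPM in Mll2 WT and 99.9 ± 5.32 CPM in H2A.Z controls (SD, n = 2 each), or 2.36-fold higher in Mll2 WT, and Pramef8 was 1.57-fold higher there. Pramef25 was 2.64-fold higher in H2A.Z controls, and Pramef17 differed by 1.09-fold, higher in Mll2 WT. The Oog genes were higher in H2A.Z controls, with Oog4 at 2755 ± 67.9 CPM in H2A.Z controls and 1606 ± 88.7 CPM in Mll2 WT, or 1.72-fold higher in H2A.Z controls, and Oog2, Oog1 and Oog3 higher there by 1.61-fold, 1.44-fold and 1.22-fold. These differences had no test.

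Within the Mll2 KO pair, replicate 2 was lower than replicate 1 in Oog4, Oog3 and Oog2, by log2 ratios of -0.77, -0.53 and -0.48, and higher in Pramef12, Pramef8 and Pramef25, by 0.67, 0.32 and 0.78. Oog1 was higher (0.20) and Pramef17 lower (-0.36) in replicate 2, so the split did not follow the names. The Mll2 WT libraries differed by -0.22 to 0.25 in the 8 genes.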
